A study of Mus musculus with 87 samples.

Results

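The chaperone set described here was drawn by gene symbol. It holds every probe set of the array with a single symbol of the series Hspa, Hspb, Hspd, Hspe, Hsph, Hsp90, Dnaja, Dnajb, Dnajc or Cct, which name proteins of the Hsp70, small heat shock protein, Hsp60, Hsp10, Hsp110, Hsp90, DnaJ and chaperonin families. These are 77 probe sets for 55 genes, of 12422 probe sets that are not controls and 8252 genes with a single symbol. The rule uses symbols and no measured value, though it was set with earlier results of these data known. Relatives under other symbols, such as the small heat shock protein Cryab and the chaperonin subunit Tcp1, are outside the set. Perlecan (Hspg2) shares the first letters of the name but is a matrix proteoglycan and was left out, as were 2 probe sets with several symbols. By family, the set has 12 probe sets for 8 CCT genes, 3 for 3 Dnaja genes, 14 for 10 Dnajb genes, 20 for 14 Dnajc genes, 15 for 11 Hsp70 genes, 3 for 2 Hsp90 genes, 3 for Hspd1 and Hspe1, 5 for 3 small heat shock protein genes, and 1 each for Hspbp1 and Hspb11. Hsp90ab1 was not analysed here.

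The study asked how gene expression differs between inbred strains across brain regions and the pituitary gland. Affymetrix MG_U74Av2 oligonucleotide arrays (87) were hybridised with RNA of male mice aged 8 weeks. They came from 6 inbred strains: FVB/NJ, A/J, DBA/2J, 129S6/SvEvTac, C3H/HeJ and C57BL/6J. Sampled were the amygdala, the bed nucleus of the stria terminalis, the cingulate cortex, the hippocampus, the hypothalamus, the periaqueductal gray and the pituitary gland, which gave 42 groups of 2 arrays (39 groups) or 3 arrays (3 groups). Tissue of 1 to 5 mice was pooled per array, and 81 arrays share animals with an array of another region. For the amygdala and cingulate cortex (26 arrays), 50 ng of RNA went through 2 rounds of amplification. From the other regions (61 arrays), 10 µg of RNA was labelled in 1 round. Regions were therefore tested against each other only within a protocol. The test of whether strain differences depend on the brain region is the exception, as it spans both protocols.

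Heat shock proteins bind unfolded or partly folded proteins and let them fold, and many are transcribed at a higher rate when heat shock factor Hsf1 is activated. Hsp70 proteins use ATP to hold and release their clients, DnaJ (Hsp40) proteins deliver clients and trigger the ATP hydrolysis, and Hsp110 and Hspbp1 act as nucleotide exchange factors. Compartments have their own machines: Hspa5 (BiP), Hsp90b1 (GRP94) and several DnaJ proteins in the endoplasmic reticulum, Hspa9, Hspd1 and Hspe1 in mitochondria, and Hspa8, Hsp90aa1, Hsph1 and the ring of CCT subunits in the cytosol, where Dnajc5 (cysteine string protein) sits on synaptic vesicles of neurons.

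Array medians ranged from 42.3 to 66.1 intensity units and upper quartiles from 164 to 185, and replicate arrays of a group correlated at r = 0.946 to 0.991 over 48 pairs. For 2 groups, FVB/NJ bed nucleus (r = 0.967) and C57BL/6J hypothalamus (r = 0.989), both arrays name the same animals, so their spread may be technical. Of the pituitary arrays, the 4 with the labels C3H/HeJ and FVB/NJ carried each other's strain profile over 200 strain-specific probe sets: r was -0.31 and -0.32 with their own profile and 0.87 and 0.87 with that of FVB/NJ in the arrays labelled C3H/HeJ, and -0.28 and -0.29 against 0.86 and 0.89 with that of C3H/HeJ in the arrays labelled FVB/NJ. Strain comparisons therefore use the 75 brain arrays, each strain against the mean of the other 5 with regions weighted equally. The pituitary comparison, which averages all strains, does not depend on which of these labels holds. Regional markers matched the labels of the hypothalamus, periaqueductal gray and pituitary gland. For the hippocampus this held only among regions labelled in 1 round. Its 3 markers summed to a median of 984 there, below the 1773 of amygdala arrays and the 1028 of cingulate arrays. The 1 marker for the bed nucleus, Drd2, did not set that region apart, with a median of 104 against 124 in the periaqueductal gray. The bed nucleus arrays also carried oxytocin transcript (Oxt) at a median of 2586, against 3439 in the hypothalamus and at most 124 on any array of the other 4 brain regions.

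Testing was limited to probe sets with at least 1 group mean above 55.4, which is the median intensity over all arrays. This left 66 of the 77 chaperone probe sets, for 51 of the 55 genes. Members that passed only through their highest group are among these 66, so the counts below describe the tested probe sets. The genes with no tested probe set were Cct6b, Dnajb8, Hspa1l and Hspb1. Hspb1, the small heat shock protein Hsp25, had array values of 0.45 to 32.6 and a highest group mean of 21.2, near background everywhere. All log2 differences are of log2(intensity + 16) and understate the change of dim probe sets. A member was called at an adjusted p below 0.05 (limma, Benjamini-Hochberg over all 8460 probe sets tested). Since whole tissue was measured, fewer cells of a type and less RNA per cell cannot be told apart.

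Hspa1b, an inducible Hsp70, was the chaperone with the largest strain difference in the brain, and it was high in FVB/NJ. It has a near-identical neighbour, Hspa1a, on chromosome 17. The windows around their start sites are shown because the copies share nearly all of this sequence. As given below, Hspa1a was not called in FVB/NJ over the brain. The part of these windows in the strain difference was not tested. In RefSeq's promoter table for GRCm38.p6, which is C57BL/6J sequence, the windows (250 bases before to 50 after the start) match at 296 of 300 bases. Capitals mark the 4 bases that differ. The Hspa1b window is chr17:34959189-34959488 and the Hspa1a window chr17:34972107-34972406, both on the minus strand, printed 5′ to 3′ of the gene.
Hspa1b: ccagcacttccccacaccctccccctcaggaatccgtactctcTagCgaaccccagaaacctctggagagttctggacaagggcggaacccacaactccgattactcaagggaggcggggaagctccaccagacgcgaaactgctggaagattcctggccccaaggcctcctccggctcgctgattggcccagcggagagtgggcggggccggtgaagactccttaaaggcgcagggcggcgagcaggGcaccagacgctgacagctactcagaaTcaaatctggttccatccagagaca
Hspa1a: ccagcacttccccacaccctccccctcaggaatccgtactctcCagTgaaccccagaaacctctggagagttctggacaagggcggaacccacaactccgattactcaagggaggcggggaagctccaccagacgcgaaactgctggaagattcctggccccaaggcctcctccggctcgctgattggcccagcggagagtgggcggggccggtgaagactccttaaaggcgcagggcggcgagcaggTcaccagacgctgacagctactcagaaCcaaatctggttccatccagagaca

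In the amygdala, Hspa1b read 149 and 142 in FVB/NJ, against 33.7 to 74.4 (median 47.7) on the 11 arrays of other strains. In the bed nucleus it read 185 and 96.2 in FVB/NJ, against 22.8 to 59.5 (median 39.9) in the others. In the cingulate cortex the values were 121 and 162 in FVB/NJ and 34.8 to 80.6 (median 56.0) in the others. FVB/NJ arrays were the highest in each of these regions, with no overlap. The hippocampus gave 270 and 259 in FVB/NJ and 73.1 to 134 (median 104) in the others. The hypothalamus gave 141 and 142 in FVB/NJ and 33.6 to 61.6 (median 43.2) in the others. The periaqueductal gray gave 298 and 161 in FVB/NJ and 32.9 to 99.7 (median 39.0) in the others. FVB/NJ stood above all other arrays in 6 of 6 brain regions. Over the regions the group intensity was 168 in FVB/NJ against 54.1 in the other strains, a log2 difference of 1.40 ± 0.09 (SE) or 2.63-fold (adjusted p = 5.43e-19, 12 arrays against 63).

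**Figure D1:**
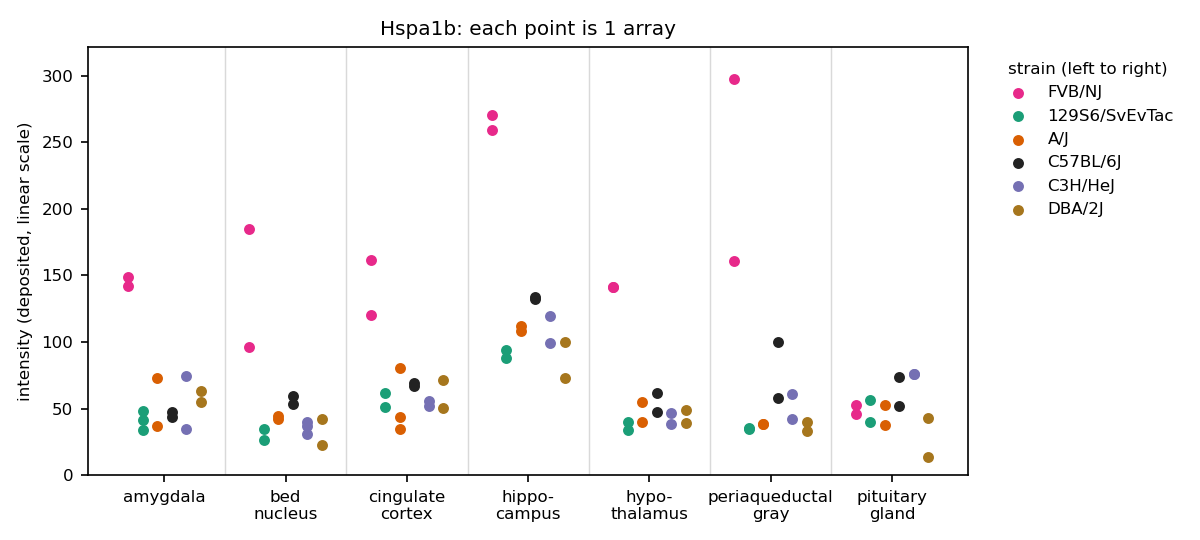
Hspa1b intensity (y axis, linear) on each array, by region along the x axis and strain by colour, with FVB/NJ leftmost in each region; each point is 1 array. FVB/NJ arrays read 96.2 to 298 in the 6 brain regions and 45.9 to 52.3 under the FVB/NJ label in the pituitary gland.

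The plot of Hspa1b by array also shows the pituitary gland, where the FVB/NJ and C3H/HeJ labels are in doubt. The pituitary arrays labelled FVB/NJ read 52.3 and 45.9, within the range of 13.8 to 75.9 of the others, and the difference was not called (group intensities 49.0 in both, adjusted p = 1). The arrays labelled C3H/HeJ, which carry the FVB/NJ profile, read 75.6 and 75.9, the highest of the pituitary gland, and this difference was not called either (0.60 ± 0.21, adjusted p = 0.10). Among brain regions, FVB/NJ shared a scan day with another strain only in the amygdala, hippocampus and hypothalamus. Elsewhere in the brain, strains could not be compared within a day. In the hippocampus on the second scan day FVB/NJ read 259 to 270 and 6 arrays of 4 other strains 73.1 to 134, a difference of 1.20. In the amygdala FVB/NJ read 142 to 149 and A/J 36.6 to 72.9 on the same day (1.24), and in the hypothalamus 1 FVB/NJ array read 141 and 2 DBA/2J arrays 38.8 to 48.6 (1.40).

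Below FVB/NJ (median 155 over the brain arrays), the strain medians of Hspa1b were 60.6 in C57BL/6J, 49.3 in DBA/2J, 46.3 in C3H/HeJ, 43.5 in A/J and 40.2 in 129S6/SvEvTac, and the ranges of these 5 overlapped. Hspa1b was called lower in 129S6/SvEvTac (-0.50 ± 0.09), DBA/2J (-0.37 ± 0.09), A/J (-0.29 ± 0.09) and C3H/HeJ (-0.28 ± 0.09), but each of these comparisons has the FVB/NJ arrays in its second term. Its neighbour Hspa1a was not called in FVB/NJ over the brain (0.11, adjusted p = 0.276). In the bed nucleus Hspa1a read 182 and 144 in FVB/NJ (log2 difference 0.55, adjusted p = 0.0295) and in the periaqueductal gray 229 and 160 (0.56, adjusted p = 0.0183), both higher than in the other strains. In the cingulate cortex it was lower in FVB/NJ, at 90.3 and 107 (-0.51, adjusted p = 0.0256). Cross-hybridisation between the 2 copies was not tested.

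Among probe sets outside the set, those whose log2 values followed Hspa1b best over the 75 brain arrays, after the mean of each region was removed, were Zfp239 (Pearson r = 0.72), Otub1 (r = 0.66), Peg3 (r = 0.65), H2-D1 (r = 0.64) and Lipa (r = 0.63). These arrays share animals, strains and scan days, and with the mean of each strain and region removed r was 0.01 for Zfp239, -0.02 for Otub1, 0.25 for Peg3, 0.15 for H2-D1 and -0.01 for Lipa. Otub1, on chromosome 19, read 211 to 649 (median 484) in FVB/NJ and 88.3 to 316 (median 156) in the other strains. H2-D1 lies on chromosome 17, as Hspa1b does. It read 117 to 779 (median 374) in FVB/NJ and 53.6 to 396 (median 170) in the others. Zfp239 is on chromosome 6, Peg3 on 7 and Lipa on 19. Linkage to Hspa1b was not tested. Within the set, the best followers were Hsph1 (r = 0.48), Dnajb1 (r = 0.45) and Hspa1a (r = 0.43), with r = 0.35, 0.15 and 0.40 once the mean of each strain and region was removed.

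In the FVB/NJ brain, 4 of the 66 tested members were called higher, against 5.99% of all probe sets tested, and 3 lower, against 5.59%. The counts are near the share of all probe sets. Dnajb1, a cytosolic DnaJ partner of inducible Hsp70, read 159 to 342 (median 243) in FVB/NJ and 84.3 to 326 (median 195) in the others (0.29 ± 0.07, adjusted p = 0.00116, higher in 6 of 6 regions). The other members called higher were Dnajc10, an oxidoreductase of the endoplasmic reticulum (0.27 ± 0.06), and Hsph1, the Hsp110 exchange factor (1985 against 1792; 0.15 ± 0.04, adjusted p = 0.0189). The ranges of Dnajb1, Dnajc10 and Hsph1 overlapped between FVB/NJ and the other strains. Dnaja2, a cytosolic DnaJ protein, was lower, at 244 in FVB/NJ against 291 in the others (-0.24 ± 0.04, adjusted p = 4.13e-06, lower in 6 of 6 regions). Cct5 (1 of its 2 probe sets, -0.15) and Hsp90b1 (-0.15, lower in 3 of 6 regions) were also called lower. Of 22 tested co-chaperones and heat shock factors outside the set, 3 were called higher in FVB/NJ and none lower: Cryab, a small heat shock protein (0.43), St13 (0.32) and Chordc1 (0.21). Of 15 endoplasmic reticulum folding and stress genes, 5 were called higher and 0 lower (Creld2, Pdia4, Manf, Ddit3 and Canx, 0.17 to 0.22). In FVB/NJ 2 of 4 meningeal, 1 of 3 choroid plexus and 1 of 2 blood markers were also called higher, and their part in these results was not tested.

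Dnajc10 in A/J was the second large strain difference. A/J brain arrays (13) read 104 to 221 (median 142) and those of the other strains (62) 178 to 554 (median 326). Within regions, A/J read 142 and 173 against 308 to 554 in the amygdala, 132 and 168 against 227 to 368 in the bed nucleus, and 173, 214 and 221 against 276 to 424 in the cingulate cortex. It read 104 and 106 against 178 to 299 in the hippocampus, 141 and 144 against 264 to 384 in the hypothalamus, and 116 and 135 against 222 to 384 in the periaqueductal gray. A/J lay below every other array in 6 of 6 brain regions. The log2 difference was -1.05 ± 0.06, with intensities of 144 in A/J against 315 in the other strains (adjusted p = 1.46e-21). In the pituitary gland A/J read 170 and 194 and the other strains 180 to 348, which overlapped (-0.54 ± 0.14, adjusted p = 0.0166). Dnajc10 was called higher in 129S6/SvEvTac (0.21), C3H/HeJ (0.28), DBA/2J (0.24) and FVB/NJ (0.27), whose comparisons all include the A/J arrays.

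**Figure D2:**
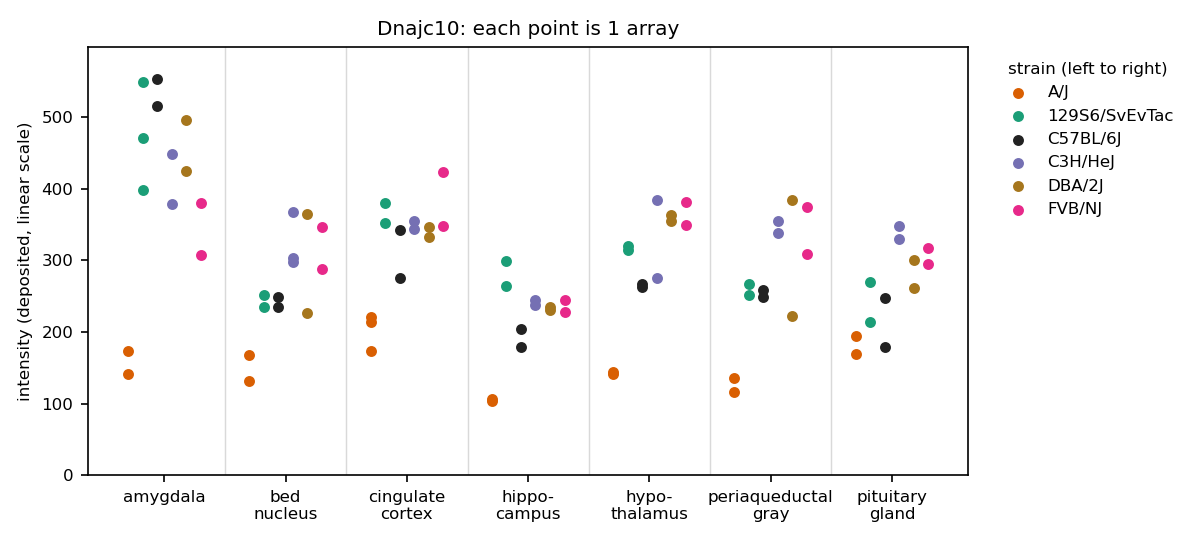
Dnajc10 intensity (y axis, linear) on each array, by region along the x axis and strain by colour, with A/J leftmost in each region; each point is 1 array. A/J arrays read 104 to 221 in the brain, below all other arrays of the same region, and overlap the other strains only in the pituitary gland.

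Among strains as a whole, the F test called 27 of the 66 members in the brain, against 39.3% of all probe sets tested. The largest F values were those of Dnajc10 (73.7, adjusted p = 4.93e-20), Hspa1b (55.2, adjusted p = 1.67e-17), Dnajc7 (12.1), Dnaja2 (8.62), Cct5 (8.50) and Hspa1a (7.86). With shared animals as a random block it called 13, and with scan day as a random block 15. The share of all probe sets called with these blocks was not counted. Of the calls in the 6 strain comparisons, 2 reached 2-fold, Hspa1b in FVB/NJ and Dnajc10 in A/J. Among all 8460 probe sets tested, 30 were called at 2-fold or more in FVB/NJ and 17 in A/J. Of 38 strain results for named members, 6 were called under every alternative processing tried. These were Hspa1b and Dnaja2 in FVB/NJ, Dnajc10 in A/J, Hspa1b and Cct5 (1 of its 2 probe sets) in 129S6/SvEvTac, and Hspa1a in C57BL/6J.

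In 129S6/SvEvTac 6 members were called higher (7.75% of all probe sets) and 3 lower (7.64%). Cct5, a chaperonin subunit, read 619 to 993 (median 756) in 129S6/SvEvTac and 517 to 772 (median 628) in the others (0.22 ± 0.04, adjusted p = 1.61e-05). The second probe set of Cct5 was not called. Hspa14, an Hsp70 that binds ribosomes, was higher by 0.26, and Hspa1a (-0.25 ± 0.06) and Hspb8, a small heat shock protein that works with Bag3 (-0.22 ± 0.07), were lower. In A/J 1 member was called higher (7.29%), Hspbp1 (0.13), and 6 lower (7.03%), among them Hspa5 (754 in A/J against 867 in the other strains, -0.20 ± 0.06, lower in 6 of 6 regions), the Hsp70 of the endoplasmic reticulum. Of the 15 endoplasmic reticulum genes outside the set, 5 were called lower in A/J and 0 higher.

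In C57BL/6J 7 members were called higher (9.61%) and 4 lower (9.82%). Hspa1a read 128 to 197 (median 160) in C57BL/6J and 82.3 to 233 (median 128) in the others, which overlapped (0.28 ± 0.06, adjusted p = 0.000488, higher in 6 of 6 regions). Dnajc5 was higher by 0.24 ± 0.06 and Hspb8 by 0.21 ± 0.07, while Dnajb13, an axonemal DnaJ protein (-0.24), Hspb2 (-0.17), Hspa5 (-0.16) and Hspa8, the constitutive cytosolic Hsp70 (2062 against 2274, -0.14 ± 0.05), were lower. Hspb2 lost its call in 11 of 13 alternatives and Hspa5 and Hspa8 in 10 of 14 each, and Dnajc5 was at -0.0052 with strain, region and scan day as added terms. In C57BL/6J 3 of 4 oligodendrocyte and 2 of 3 astrocyte markers were also called higher, and their part was not tested. In C3H/HeJ 3 were called higher (3.85%) and 2 lower (4.86%), among them Dnajc3, an endoplasmic reticulum co-chaperone known as p58IPK (1 of its 3 probe sets, 131 against 106, 0.26 ± 0.07), and Dnajb11 (0.17), both higher. In DBA/2J 3 were called higher (5.9%) and 3 lower (5.46%). Cct8 (0.20) and Hsp90aa1 (4130 against 3751, 0.14 ± 0.04) were higher with Dnajc10. Cct2 (161 against 189, -0.21 ± 0.06) and Dnajc2, a ribosome-associated DnaJ protein (-0.22), were lower with Hspa1b. Hsp90aa1 and Dnajc2 were each called on 1 of 2 probe sets. The members' counts lay within a few probe sets of the share of all probe sets in each strain.

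Dnajc7, a DnaJ protein with tetratricopeptide repeats, was called in 3 strains: higher in 129S6/SvEvTac (0.38 ± 0.09) and C57BL/6J (0.35 ± 0.09) and lower in A/J (318 against 471, -0.54 ± 0.09). In the one-round brain regions its level moved with the day the array was scanned. There it read 151 to 346 (median 235) on 20 arrays of scan days 6 to 17 and 462 to 636 (median 565) on 29 arrays of scan days 1 to 5, without overlap. In 4 groups scanned in both periods, the later array was lower than the earlier by 0.71 to 1.66 on the log2 scale, with a median of -1.27. For example, A/J hippocampus read 151 on day 8 and 512 on day 2, and C3H/HeJ hippocampus 185 on a later day and 508 earlier. The next largest median shift among the 66 members was 0.51 (Dnajb13). In the other tissues the ranges of the earlier and later days overlapped. Pituitary arrays read 129 to 436 (median 170) on the later days and 154 to 414 (median 380) on the earlier, 6 arrays each. Amplified arrays read 432 to 708 (median 575, 24 arrays) on the later days and 505 to 527 (2 arrays) on the earlier. With strain, region and scan day as added terms, an alternative chosen after seeing the data, the Dnajc7 difference was -0.10 in 129S6/SvEvTac, -0.15 in C57BL/6J and -0.06 in A/J, and none was called.

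**Figure D3:**
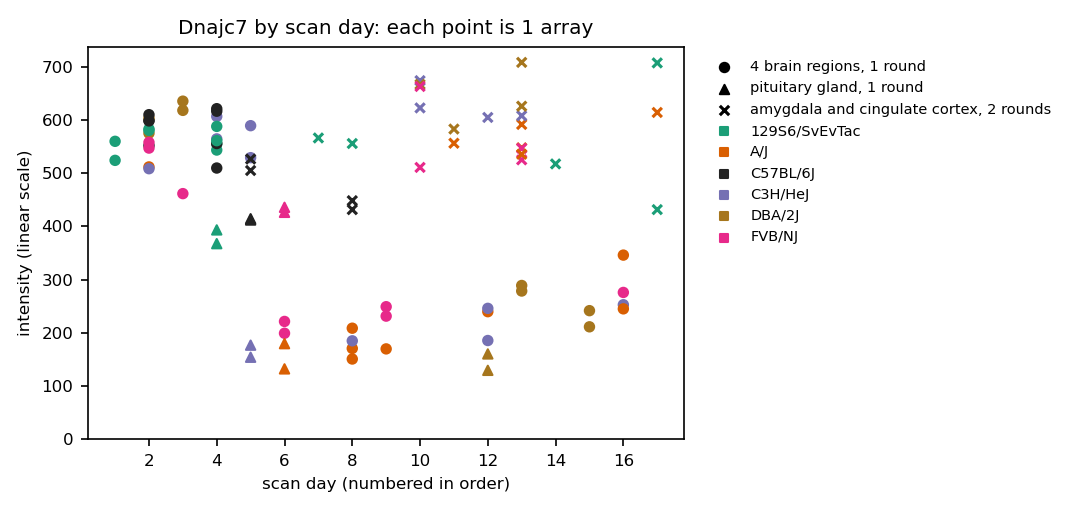
Dnajc7 intensity (y axis) on each array against the number of the scan day in order of time (x axis), with the kind of region by symbol and strain by colour; each symbol is 1 array. In the 4 one-round brain regions all values of days 1 to 5 lie at or above 462 and all values of days 6 to 17 at or below 346.

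Whether a strain difference depended on the brain region was asked with an interaction F test, which called 14 of the 66 members, against 21.3% of all probe sets. The 6 with the largest F were Dnajc7, Dnajb4, Hsp90b1, Dnajc5, Hspa2 and Dnajb5. Dnajb4, an Hsp40 protein, read 16.9 and 34.3 in the C57BL/6J amygdala, 104 and 144 in DBA/2J and 89.0 and 109 in C3H/HeJ, which gave differences from the other strains of -1.11, 1.01 and 0.68. Hsp90b1 in the amygdala read 324 and 318 in FVB/NJ, below all arrays of the other strains (440 to 697; -0.74 ± 0.09, adjusted p = 4.92e-08). Hspa2, an Hsp70 abundant in male germ cells, read 18.7 and 17.3 in the C57BL/6J amygdala (-0.70 ± 0.17). Dnajb5 was near background in the amplified regions; its highest arrays there, 42.6 and 21.6, were those of the 129S6/SvEvTac cingulate cortex. With the 4 one-round regions alone, 1 member was called in the interaction test, Dnajc7. The share of all probe sets called there was not counted. The test over 6 regions also sets amplified against one-round arrays. Region and labelling protocol cannot be told apart in the amygdala and cingulate cortex values above.

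Between regions, differences of at least 2-fold were called 11 times in the 6 comparisons, 9 of them in the pituitary gland and 2 in the hippocampus. Among all 8460 probe sets tested, 1740 were called at 2-fold or more in the pituitary gland and 339 in the hippocampus. The heat map of region comparisons shows the pituitary gland as the column with the deepest colours.

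**Figure D4:**
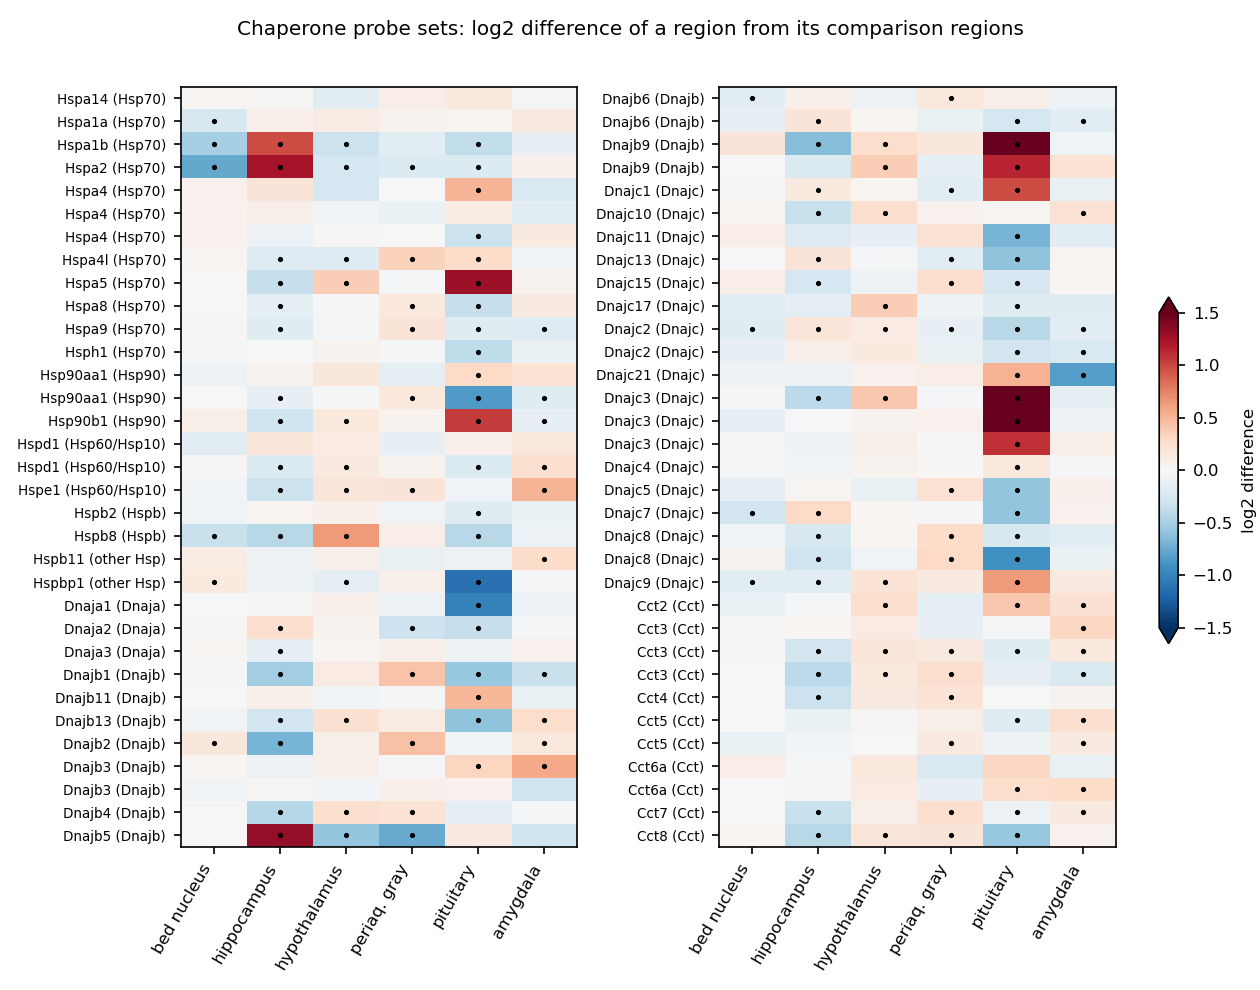
Log2 differences (colour, tested region minus its comparison regions) of the 66 tested chaperone probe sets (down the page, by family) in 6 region comparisons (across); the colour scale ends at 1.5 in either direction and dots mark adjusted p below 0.05. Dnajc3 in the pituitary column reaches 1.85, and the hippocampus column holds 26 lower and 9 higher calls.

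In the pituitary gland, chaperones of the endoplasmic reticulum were high, and more of the other chaperones were low than high, relative to the mean of the 4 brain regions labelled in 1 round. Of the 66 members 18 were called higher, against 42.4% of all probe sets, and 30 lower, against 37.5%; the median difference was -0.08 for members and 0.04 for all probe sets tested. Of 10 endoplasmic reticulum probe sets (7 genes), 9 were called higher and 0 lower, with a median of 1.12. Of 49 probe sets of the cytosol, nucleus and other places, 9 were higher and 26 lower (median -0.18), and of 7 mitochondrial ones 0 were higher and 4 lower (median -0.18). The location classes were assigned by hand from textbook knowledge.

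Transcription of endoplasmic reticulum chaperones is known to be raised through the ER stress element, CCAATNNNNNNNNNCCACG, which Atf6 and Xbp1 bind together with NF-Y. Promoter windows of 3 members that were high in the pituitary gland are shown because each holds this motif, in capitals, on either strand (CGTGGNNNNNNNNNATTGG is the other strand). They are Hspa5 (chr2:34771840-34772139, plus strand), Hsp90b1 (chr10:86705395-86705694, minus strand), with 2 matches, and Dnajc3 (chr14:118937682-118937981, plus strand), all GRCm38.p6 from RefSeq.
Hspa5: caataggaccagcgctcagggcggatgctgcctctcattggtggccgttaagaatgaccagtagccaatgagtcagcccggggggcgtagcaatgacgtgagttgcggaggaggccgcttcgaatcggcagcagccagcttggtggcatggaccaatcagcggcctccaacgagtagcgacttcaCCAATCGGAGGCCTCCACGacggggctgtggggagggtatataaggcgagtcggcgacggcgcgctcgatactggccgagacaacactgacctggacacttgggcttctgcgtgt
Hsp90b1: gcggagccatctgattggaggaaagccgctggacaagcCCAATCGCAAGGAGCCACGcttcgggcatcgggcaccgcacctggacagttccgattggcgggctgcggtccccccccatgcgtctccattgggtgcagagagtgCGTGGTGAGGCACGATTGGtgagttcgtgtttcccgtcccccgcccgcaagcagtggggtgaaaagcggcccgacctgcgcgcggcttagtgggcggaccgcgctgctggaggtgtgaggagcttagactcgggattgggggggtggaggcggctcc
Dnajc3: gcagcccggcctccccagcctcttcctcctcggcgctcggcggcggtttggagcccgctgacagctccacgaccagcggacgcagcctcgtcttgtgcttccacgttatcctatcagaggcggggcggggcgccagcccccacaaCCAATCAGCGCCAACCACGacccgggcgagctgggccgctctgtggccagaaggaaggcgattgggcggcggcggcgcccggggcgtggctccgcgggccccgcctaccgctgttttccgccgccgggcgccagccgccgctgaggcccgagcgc

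The motif was in 39 of 32851 promoter windows of this length (0.119%), and in those of 3 of the 47 member genes that had one. The windows of Dnajb9, Dnajb11, Dnajc1 and Dnajc10 held no match to these letters. A heat shock element spelled GAANNTTCNNGAA or TTCNNGAANNTTC was in 0.603% of windows and in those of Dnajb6, Hspd1, Hspe1 and Hsph1 among the members; the windows of Hspa1a and Hspa1b held no match to this spelling.

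On the probe set with its largest difference, Dnajc3 read 186 to 329 (median 247) on the 12 pituitary arrays and 18.1 to 104 (median 60.7) on the 49 brain arrays, without overlap (1.85 ± 0.09, 3.61-fold, adjusted p = 1.41e-24). Its other probe sets were higher by 1.58 and 1.09. Dnajb9 (ERdj4, which binds Hspa5 and misfolded clients) read 322 to 505 (median 408) in the pituitary gland and 47.2 to 174 (median 125) in the brain (1.64 ± 0.09), and its other probe set was higher by 1.14. Both genes were separated completely on these probe sets, which were named for their large differences. How many of all probe sets were separated in this way was not counted. Hspa5 read 1962 to 2881 (median 2414) in the pituitary gland and 554 to 1397 (median 994) in the brain (1.29 ± 0.06, adjusted p = 5.91e-26). Hsp90b1, the Hsp90 of this compartment, averaged 2218 against 1066 (1.05 ± 0.04, adjusted p = 2.24e-30). Dnajc1, a membrane DnaJ protein, was higher by 0.97 and Dnajb11 (ERdj3) by 0.50, and Dnajc10 was not called. Outside the set, 13 of 15 endoplasmic reticulum folding and stress genes were called higher and 0 lower (median 0.92), among them Manf (2.37), the disulfide isomerases Pdia3 (1.93), Pdia6 (1.59) and Pdia4 (1.53), Creld2 (1.44) and the transcription factor Xbp1 (1.09).

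The members lowest in the pituitary gland, Hspbp1 and Dnaja1, act in the cytosol. Hspbp1 read 127 to 209 (median 167) there and 295 to 493 (median 382) in the brain (-1.12 ± 0.04, adjusted p = 1.11e-31). Dnaja1, a farnesylated Hsp40, read 528 to 735 (median 634) in the pituitary gland and 973 to 1614 (median 1286) in the brain (-1.02 ± 0.04). Hsp90aa1, the inducible cytosolic Hsp90, read 1833 to 2425 (median 2050) and 2936 to 4992 (median 3833; -0.85 ± 0.04). The pituitary and brain arrays did not overlap for any of these 3, which were also named for their large differences. Dnajc8, a nuclear splicing-associated DnaJ protein (-0.92 on the probe set with the larger difference), Dnajc11 of mitochondria (-0.69), Dnajc13 of endosomes (-0.61), Dnajc5 (-0.59), Dnajb1 (-0.56), Hsph1 (-0.38), Hspa8 (-0.34), Hspd1 (-0.20) and Hspa9 (-0.18) were called lower. The cytosolic Cct2 (0.40), Dnajc9 (0.64), a histone chaperone, and Hspa4l (0.27) were called higher. Probe sets of 2 genes were called in opposite directions: Hsp90aa1 (0.30 on its second probe set) and Hspa4, an Hsp110 relative (0.52 and -0.33). Of the named results, those called under every alternative were 12 of 12 in the pituitary gland, 9 of 12 in the hippocampus, 7 of 12 in the amygdala, 5 of 12 in the periaqueductal gray, 4 of 11 in the hypothalamus and 3 of 8 in the bed nucleus. In the pituitary gland 48 members were called also with C3H/HeJ and FVB/NJ arrays left out.

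Cell types differ between these tissues. The summed intensity of 4 neuron markers was 1260.4 to 1626 in the pituitary gland and 4718 to 8609.6 in the 4 brain regions, and all 4 were called lower. All 3 astrocyte and all 4 tested oligodendrocyte markers were called lower as well, and the 6 pituitary hormone genes summed to 51267 to 64843. The part of cell composition in the chaperone differences was not tested. Of 22 co-chaperones and heat shock factors, 7 were called higher and 9 lower in the pituitary gland (median -0.02), with Bag3 at 1.97 and Fkbp5 at 1.75 and with Ppid at -1.84 and Pfdn2 at -1.39.

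In the hippocampus, 3 members stood high and a broader group low, relative to the bed nucleus, hypothalamus and periaqueductal gray. Of the 66 members 9 were called higher, against 21.7% of all probe sets, and 26 lower, against 27.3%; the median was -0.08 for members and -0.01 for all probe sets. Dnajb5, an Hsp40 protein, read 125 to 209 (median 157) in the hippocampus and 19.8 to 149 (median 63.5) in the other 3 regions (1.32 ± 0.11, adjusted p = 1.69e-15). Hspa2 read 181 to 287 (median 229) and 49.4 to 146 (median 90.2), without overlap (1.24 ± 0.07, adjusted p = 9.93e-21). Hspa1b read 73.1 to 270 (median 110) and 22.8 to 298 (median 42.1; 0.97 ± 0.09, adjusted p = 2.72e-13), and was higher in the hippocampus in 6 of 6 strains. In the other 3 regions FVB/NJ arrays read 96.2 to 298, and the highest array of another strain there read 99.7. Dnajc7 (0.29), Dnaja2 (0.25), Dnajc13 (0.19), Dnajb6 (0.19), Dnajc2 (0.18) and Dnajc1 (0.15) were also called higher. Of these, Dnajb6 and Dnajc2 were each called on 1 of 2 probe sets. The level of Dnajc7 moved with the scan day, and its difference was 0.036 with scan day as a random block. Of 10 immediate early genes, 8 were called higher and 1 lower in the hippocampus, with Nr4a1 at 1.74, Egr1 at 1.18 and Fos at -0.82.

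**Figure D5:**
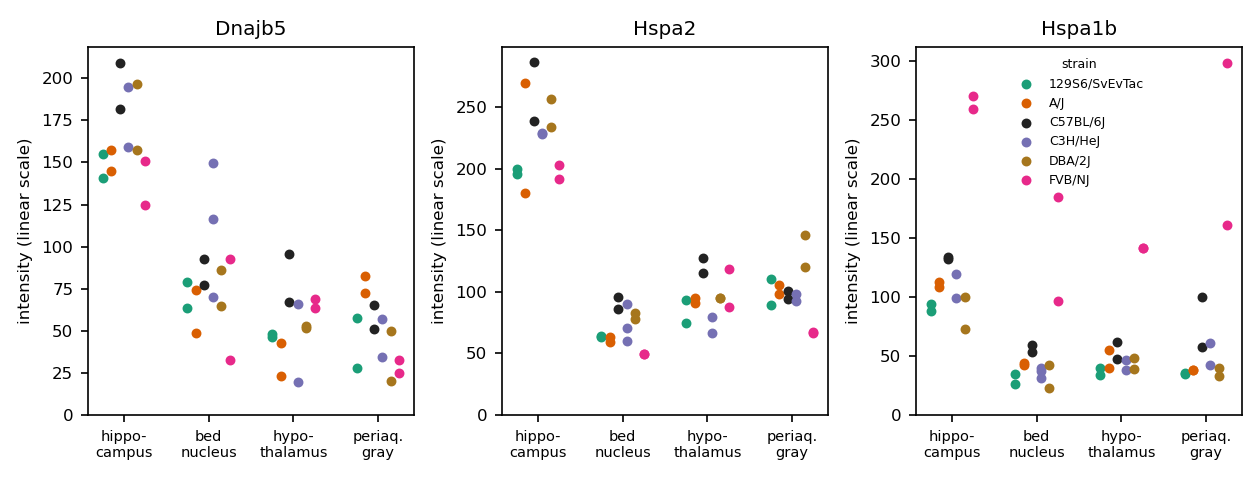
Intensity (y axis) of Dnajb5, Hspa2 and Hspa1b (panels) on the arrays of the hippocampus, at the left of each panel, and of the bed nucleus, hypothalamus and periaqueductal gray, with strain by colour; each point is 1 array. Hippocampus arrays start at 125 for Dnajb5 and 181 for Hspa2, and Hspa1b spans 73.1 to 270 there.

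Among members that were low in the hippocampus, Dnajb2, a neuronal DnaJ protein that directs clients to degradation, read 186 to 280 (median 237) there and 307 to 496 (median 386) in the other 3 regions (-0.70 ± 0.05, adjusted p = 6.78e-18), without overlap. Dnajb9, on the probe set called here, read 47.2 to 107 (median 80.3) and 95.7 to 174 (median 133; -0.64 ± 0.09). Dnajb1 read 84.3 to 205 (median 160) and 145 to 342 (median 214; -0.52 ± 0.07), so that the partners Hspa1b and Dnajb1 differed in opposite directions. Dnajb4 (-0.43), Hspb8 (-0.42) and Cct8 (-0.41) followed, and all 6 were lower in 6 of 6 strains. The low group reached every compartment: 5 of 10 endoplasmic reticulum probe sets were called lower and 1 higher (Hspa5 -0.35, Hsp90b1 -0.30, Dnajc10 -0.34), 5 of 7 mitochondrial ones lower and 0 higher (Hspe1 -0.33, Hspd1 -0.21, Hspa9 -0.18), and 5 of 11 CCT probe sets lower and 0 higher. Outside the set, 10 of 15 endoplasmic reticulum genes were called lower and 2 higher (Herpud1 -0.58, Atf6 0.72), and 9 of 22 co-chaperones lower and 2 higher (Fkbp4 -0.67, Stip1 -0.59, Fkbp5 0.71). The summed neuron markers were 6917 to 8609.6 in the hippocampus, against 4718 to 8573 in the other 3 regions, and 3 of 4 neuronal and 4 of 4 tested microglial markers were called higher there and 3 of 4 oligodendrocyte markers lower; their part in these differences was not tested.

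The hypothalamus had 18 members called higher, against 18.5% of all probe sets, and 5 lower, against 16%. Hspb8 read 140 to 247 (median 172) there and 70.1 to 148 (median 110) in the bed nucleus, hippocampus and periaqueductal gray (0.64 ± 0.07, adjusted p = 8.96e-11, higher in 6 of 6 strains), with the ranges just touching. Endoplasmic reticulum members were again on 1 side, with 6 of 10 probe sets higher and 0 lower (median 0.20): Dnajc3 (0.41), Hspa5 (1187 against 915, 0.37 ± 0.06), Dnajb9 (0.36 and 0.27), Dnajc10 (0.24) and Hsp90b1 (0.16). Dnajc17, a nuclear DnaJ protein, was higher by 0.37. In the same comparison 3 of 6 pituitary hormone genes were called higher. The 6 genes summed to 518 to 8733 (median 1596) in the hypothalamus and 256 to 4731 (median 702) in the bed nucleus. Their sums were 236 to 3183 (median 327) in the hippocampus and 190 to 6764 (median 487) in the periaqueductal gray. Of the cell type markers, 3 of 4 neuronal and 3 of 4 oligodendrocyte ones were called lower and 3 of 4 meningeal ones higher. The part of these tissues and cells in the chaperone differences was not tested. The lower members were Dnajb5 (-0.58), Hspa1b (-0.32), Hspa2 (-0.27), Hspa4l (-0.19) and Hspbp1 (-0.15). Hippocampal and hypothalamic comparisons each hold the other region in the second term, so the opposite signs of Hspa5 or Dnajb9 are not separate observations. With arrays scaled to equal medians, 14 rather than 23 members were called.

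The periaqueductal gray had 19 members called higher, against 19.9% of all probe sets, and 6 lower, against 20.7%. Dnajb2 read 374 to 496 (median 432) there and 186 to 429 (median 352) in the other 3 regions (0.44 ± 0.05, adjusted p = 1.34e-10). Dnajb1 read 199 to 342 (median 277) and 84.3 to 264 (median 199; 0.43 ± 0.07), and both were higher in 6 of 6 strains. Hspa4l (0.35 ± 0.05), Dnajc8 (0.30 and 0.28) and Cct7 (0.25) were higher too. CCT subunits were called higher on 6 of 11 probe sets and lower on 0, and mitochondrial members on 3 of 7 and 0, among them Hspa9 (0.19) and Hspe1 (0.19). In this comparison 4 of 4 oligodendrocyte, 3 of 4 neuronal and 2 of 3 astrocyte markers were called higher, and 4 of 4 tested microglial and 4 of 4 meningeal markers lower; their part was not tested. Hspa8 read 1771 to 2416 (median 2215) in the periaqueductal gray (0.16 ± 0.05). Dnajb5 was lower (-0.75 ± 0.11), as was Dnaja2, which read 150 to 192 (median 185) there and 172 to 287 (median 230) in the other regions (-0.32 ± 0.04). Hspa2 (-0.20), Dnajc13 (-0.16), Dnajc1 (-0.16) and Dnajc2 (1 of its 2 probe sets, -0.12) were called lower.

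The bed nucleus differed least, with 2 members called higher, against 7.52% of all probe sets, and 8 lower, against 7.4%. Hspa2 read 49.4 to 95.5 (median 64.2) there and 66.3 to 287 (median 108) in the hippocampus, hypothalamus and periaqueductal gray (-0.77 ± 0.07, adjusted p = 2.06e-12). Hspa1b (-0.50 ± 0.09) and Hspb8 (-0.33 ± 0.07) were lower in 6 of 6 strains. Hspa1a (-0.24 ± 0.06) and Dnajc2 (1 of its 2 probe sets, -0.18) were called lower as well. Dnajc7 was called too (-0.29), but lost the call in 7 of 11 alternatives, and its level moved with the scan day. Dnajb2 (0.17) and Hspbp1 (0.15) were called higher. The summed choroid plexus markers ranged from 65.2 to 5091 over the bed nucleus arrays, and their part was not tested.

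The amygdala and the cingulate cortex share the amplified protocol and were compared with each other (13 arrays each). Of the 66 members 14 were called higher in the amygdala, against 17.4% of all probe sets, and 9 lower, against 17.2%. Hspe1, the mitochondrial Hsp10 cap, read 829 to 1343 (median 1082) in the amygdala and 597 to 868 (median 792) in the cingulate cortex (0.51 ± 0.07, adjusted p = 9.30e-09), and its partner Hspd1 (Hsp60) was higher by 0.24 ± 0.05; each was higher in 6 of 6 strains. Hspa9, the mitochondrial Hsp70, was lower (-0.20 ± 0.05). Dnajc21, a ribosome biogenesis factor, read 26.6 to 59.4 (median 41.2) in the amygdala and 48.0 to 109 (median 83.1) in the cingulate cortex (-0.83 ± 0.08, adjusted p = 6.56e-13). Dnajb3 read 30.4 to 75.3 (median 53.3) in the amygdala and 16.7 to 45.3 (median 27.5) in the cingulate cortex; it passed the filter on low values only through the amygdala, where it is high, so these values are a description. The arrays of the 2 regions overlapped for Hspe1, Dnajc21 and Dnajb3. CCT subunits were called higher on 7 of 11 probe sets and lower on 1, with Cct6a at 0.28 and Cct3 in both directions (0.32 and 0.14 on 2 probe sets, -0.22 on another). Dnajb1 (-0.33 ± 0.08) and Hsp90aa1 (-0.18 ± 0.05) were lower in the amygdala. Of 10 immediate early genes 8 were lower and 1 higher there, and 3 of 4 neuron markers were lower, which was not tested against the chaperone differences.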

How the data were processed

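RNA was measured on Affymetrix MG_U74Av2 arrays. The authors deposited linear intensity values with background subtracted (6.33% below 0); which software and scaling made them is not given in the sources used here. Negative values were set to 0 before log2(intensity + 16). The 8460 of 12422 probe sets with a group mean above 55.4 entered limma 3.58.1 (R 4.3.3), which fitted 42 group means. Strain contrasts were averaged over 6 brain regions; region contrasts over 6 strains. P-values were adjusted by the Benjamini-Hochberg method. Group intensities are means on the log2 scale turned back. Where nothing names separate animals, p-values measure only the spread between arrays. The members and lists were chosen with earlier results of these data known. Named with values were Hspa1b, Hspa1a, up to 4 highest and 4 lowest called members per strain comparison, up to 6 and 6 per region comparison, the 6 largest F values per F test, a fixed member per role, and the 5 probe sets most correlated with Hspa1b; others were named after their values were seen. Symbols came from the platform annotation, updated through RefSeq; 21 members carry a family or similarity suffix and may read related transcripts. Sequence variants under probes were not tested. Alternatives were scaling (quantile, equal median), pseudocounts, filters (none, upper quartile), random blocks (scan day, animals), a replicate block, other region sets, group means and each replicate left out. The steps were tested on simulated data for the FVB/NJ comparison only. The simulated errors were independent, with no region, scan day or shared animal effects.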

Additional observations from a re-analysis of the deposited data

Results flagged for a closer look

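For 6 members the differences between strains depended on the brain region by the interaction F test of limma, and these were the largest such F values among the 66 tested members: Dnajc7 (F = 5.12, adjusted p = 6.44e-05), Dnajb4 (F = 4.252), Hsp90b1 (F = 3.48), Dnajc5 (F = 3.179), Hspa2 (F = 2.693) and Dnajb5 (F = 2.632, adjusted p = 0.0168). This test spans both labelling protocols, and with the 4 one-round regions alone only Dnajc7 was called among the members. Dnajc7 was called in all 12 alternatives with an interaction test, among them scan day as a random block, but the interaction could not be fitted on group means or with scan day as an added term. In the one-round brain regions Dnajc7 read 151 to 346 on scan days 6 to 17 and 462 to 636 on scan days 1 to 5. For Dnajc5 the widest call was in the DBA/2J bed nucleus, at -0.51.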

How the results depend on the processing

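Called members were counted again under each alternative. The share of all probe sets called was not counted there, so a fall in a count may not be particular to the members. Strain F: 15 with scan day as a random block, 13 with shared animals as a block, 7 on group means. Interaction F: 3 with the scan day block, 9 with the animal block, 1 with the 4 one-round regions. Scaling to equal medians gave 7 calls in C57BL/6J and 14 in the hypothalamus, and a pseudocount of 4 gave 3 in C3H/HeJ. The scan day block gave 5 calls in 129S6/SvEvTac, 4 in A/J, 1 in C57BL/6J, 2 in C3H/HeJ, 2 in DBA/2J, 4 in the bed nucleus and 12 in the hypothalamus. The animal block gave 4 in C57BL/6J, 1 in C3H/HeJ and 3 in DBA/2J. All 7 regions gave 11 in A/J and 3 in C3H/HeJ; the 4 one-round regions gave 5 in 129S6/SvEvTac, 1 in C3H/HeJ and 3 in DBA/2J. Group means gave 2 in 129S6/SvEvTac, A/J and C57BL/6J, 1 in C3H/HeJ and DBA/2J and 3 in FVB/NJ. Strain, region and scan day as added terms (chosen after seeing the data) gave 10 for the strain F, 2 in 129S6/SvEvTac and A/J, 1 in C57BL/6J, C3H/HeJ and DBA/2J, 3 in the bed nucleus, 19 in the hippocampus, 10 in the hypothalamus, 11 in the periaqueductal gray and 8 in the amygdala. Averaging the pairs that name the same animals (also chosen after seeing the data) gave 9 for the interaction and 7 in C57BL/6J. Leaving out each replicate gave 4 to 10 calls in A/J, 4 to 13 in C57BL/6J, 2 to 7 in C3H/HeJ and 6 to 11 in FVB/NJ. The libraries that moved a count by over 1.5 times were A/J hippocampus replicate 2 (4 in A/J); C57BL/6J hypothalamus replicate 1 (4 in C57BL/6J) and replicate 2, both C57BL/6J amygdala arrays and periaqueductal gray replicate 2 (7 each); 7 C3H/HeJ arrays (2 or 3 in C3H/HeJ: both of the amygdala, cingulate cortex replicates 1 and 2, and replicate 2 of the hippocampus, hypothalamus and periaqueductal gray); and FVB/NJ bed nucleus replicate 2 and C3H/HeJ cingulate cortex replicate 2 (11 each in FVB/NJ). Signs turned for Hsp90b1 in FVB/NJ with the 4 one-round regions (0.019) and, with the added terms, for Dnajc7 in 129S6/SvEvTac (-0.10), C57BL/6J (-0.15) and the hippocampus (-0.10) and Dnajc5 in C57BL/6J (-0.0052); the cause was not tested. Hspa1b in FVB/NJ ranged from 0.97 (pseudocount 64) to 1.58 (pseudocount 4) and stayed called. With a replicate block the strain F called 26 and Hspa1b in FVB/NJ was 1.41, and no count moved by over 1.5 times. Deviations of arrays numbered 1 correlated at a median r of 0.003 over 861 pairs (-0.38 to 0.49), 133 of them above 0.1. Most of these pairs join different strains, so this does not show whether the numbers pair arrays within a strain. Scan day as a fixed block could not be fitted and was not run. Groups of 2 or 3 arrays and dim probe sets near background limit what can be seen.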
